A study of Mus musculus with 30 samples.

Results

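The genes described here are 10 naive pluripotency transcription factors and regulators of mouse embryonic stem cells (ESCs): Tfcp2l1, Klf2, Klf4, Klf5, Esrrb, Tbx3, Nr0b1, Prdm14, Zfp42 and Dppa3. They are given by name, by a rule that uses no measured value, and the list was drawn up with earlier results of these data known. All 10 were found once each in both deposited gene count tables, which list 52630 genes (time course) and 55487 genes (passage experiment). All 10 passed the filter on low counts in both tables, among 16049 and 16054 genes tested. The study asked how a shift of energy metabolism changes the state of ESCs.

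RNA-seq was made from the ESC line E14tg2a, an established mouse line, in 10 groups of 3 libraries each. Serum/LIF is the standard ESC medium, made with serum, glucose, pyruvate and the cytokine LIF. Enhanced Metabolic Media (EMM) is the same medium, LIF included, with d-galactose in place of glucose and pyruvate. 2i/LIF holds the MEK inhibitor PD0325901 and the GSK3 inhibitor CHIR99021 besides LIF. The time course has 12 libraries: Serum/LIF (labelled 0 h, although the treatment protocol speaks of 24 h of Serum/LIF) and 3 h, 9 h and 24 h of EMM. The passage experiment has 18 libraries: Serum/LIF, EMM and 2i/LIF, each after 10 passages (P10) and after 20 passages (P20). LIF was present in every group, all cells are of 1 line, and the labels do not say whether the P10 and P20 samples of a medium come from the same cultures.

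Total counts ran from 24074132 to 35301962 per library in the time course and from 6944904 to 27912928 in the passage experiment. The shallowest library, P20 2i/LIF replicate 1, had 3.946% of its counts in 1 gene, the predicted gene CT010467.1. The ESC markers Pou5f1, Sox2 and Nanog were abundant in all 30 libraries (summed normalized counts 55200 to 65700 in the time course and 26300 to 41500 in the passage experiment, each on its own scale). Markers of other cell types were not equal between groups. In the passage experiment the 5 fibroblast markers summed to between 2220 and 7100 normalized counts in Serum/LIF libraries, against 45.0 to 364 in EMM and 2i/LIF, where Postn was at or under 3 counts in every library of each of the 4 groups. Thy1 went against that sum in P10 EMM, where it was higher than in Serum/LIF (1.14 ± 0.22, adjusted p = 0.000194) and made up most of the total (mean 306.5 normalized counts), while the other 4 markers were lower. The 6 trophectoderm markers summed to between 4260 and 9590 in Serum/LIF against 553 to 1940 in EMM and 2i/LIF, and Elf5 was at or under 3 counts in each EMM and 2i/LIF group. Cdx2 went against that sum in P10 2i/LIF, where it was higher than in Serum/LIF (2.14 ± 0.22, adjusted p = 6.36e-08, mean 263.7 against 59.8 normalized counts). The 4 mesendoderm markers ranged from 333 to 974 in Serum/LIF, 133 to 187 in EMM, 728 to 1020 in P10 2i/LIF and 249 to 362 in P20 2i/LIF, where T, the leading mesoderm factor, was lower than at P10 (−2.84 ± 0.34, adjusted p = 1.03e-05). The 7 primitive endoderm markers summed to 179 to 315 in Serum/LIF, 109 to 126 in P10 EMM, 229 to 347 in P20 EMM and 79.9 to 136 in 2i/LIF. Of 6 of them tested, 3 rose from P10 to P20 in EMM (Dab2 2.38 ± 0.35, Sox17 1.88 ± 0.47 and Gata4 1.09 ± 0.31), where 25.2% of all genes were called, 5 were higher in P20 EMM than in P20 2i/LIF, where 48.7% were called, and 2 were higher and 3 lower in P10 2i/LIF than in Serum/LIF, where 52% were called. The 6 markers of 2-cell-like cells summed to 230 to 1320 in Serum/LIF, 17.1 to 73.9 in EMM, 272 to 771 in P10 2i/LIF and 5.91 to 49.8 in P20 2i/LIF. The part of these cells in the passage results was not tested. In the time course the trophectoderm sum went from 4310 to 4720 in Serum/LIF to 7800 to 8150 at 24 h of EMM, the primitive endoderm sum (7 markers) from 414 to 448 to between 748 and 766, the fibroblast sum from between 1800 and 1890 to between 1250 and 1470, and all 6 markers of 2-cell-like cells were at or under 3 counts. At 24 h 44.6% of all tested genes were called, 22.1% higher and 22.5% lower. The trophectoderm sum was mostly Krt8 and Krt18, and of 5 markers tested 3 were higher at 24 h (Krt8, Krt18 and Gata3) while Cdx2, a defining factor of the lineage, was lower (−1.04 ± 0.20, adjusted p = 0.000122). Of 4 fibroblast markers tested 3 were lower at 24 h and none higher, with Thy1 furthest down (−0.89 ± 0.11, adjusted p = 1.13e-06). The part of these cells in the time-course results was not tested either. In bulk RNA, fewer cells that express a gene and less RNA per cell cannot be told apart.

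Naive pluripotency is the state of the epiblast in the blastocyst before implantation, and ESCs hold it in culture through a network of transcription factors that activate one another. LIF acts through the kinase JAK and the factor STAT3, inhibition of GSK3 frees targets of the repressor TCF7L1 (TCF3), and inhibition of MEK removes the ERK signal that drives exit from the state. Tfcp2l1 and Klf4 are known STAT3 targets, Esrrb is a known target of the GSK3 branch, Klf2 is known for its response to the MEK branch, and Tbx3 is linked to LIF through PI3 kinase. Prdm14 represses genes of FGF signalling and the de novo DNA methyltransferases, Nr0b1 (Dax1) is an orphan nuclear receptor that binds other receptors, and Zfp42 (Rex1) and Dppa3 (Stella) are marks of the naive state, Dppa3 being a chromatin protein that protects DNA methylation marks in the early embryo.

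In the GENCODE annotation of GRCm38 Klf2 and Zfp42 share a chromosome, as do Tfcp2l1 and Prdm14, and each of the others lies alone on its own. Tfcp2l1 spans chr1:118627945-118685168 (plus strand), Prdm14 chr1:13113457-13127163 (minus), Klf4 chr4:55527143-55532466 (minus), Tbx3 chr5:119670669-119684724 (plus) and Dppa3 chr6:122626410-122630272 (plus). Zfp42 spans chr8:43295063-43306980 (minus), Klf2 chr8:72319033-72321656 (plus), Esrrb chr12:86361117-86521628 (plus), Klf5 chr14:99298691-99315036 (plus) and Nr0b1 chrX:86191764-86195947 (plus). Counts were per gene, so no single exon or UTR is measured.

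Promoter sequence was looked at because several members changed together. RefSeq promoter windows of build GRCm38.p6 were given for 6 of the 10 members (7 windows), and the 250 bases before the start were searched. Klf5, Tbx3, Prdm14 and Dppa3 had no entry. The motifs, searched on both strands, with matches of different motifs free to overlap, were the STAT element TTCNNNGAA, present in 7.0% of all 32817 windows of that length, the TCF/LEF element CTTTGA (13.8%), the nuclear receptor half-site AAGGTCA (4.1%) and the KLF element CACCC (52.0%). The Esrrb window shows the only STAT match among the members, the Nr0b1 window the only TCF/LEF match, and the Zfp42 window the most KLF matches (3). The windows of Tfcp2l1 and Klf4 hold none of the 4 motifs, and that of Tfcp2l1 is shown because Tfcp2l1 was higher in both EMM and 2i/LIF at P10. Capitals mark the motif matches, and each sequence runs 5′ to 3′ on the strand of its gene.
Esrrb, chr12:86360867-86361116, plus strand: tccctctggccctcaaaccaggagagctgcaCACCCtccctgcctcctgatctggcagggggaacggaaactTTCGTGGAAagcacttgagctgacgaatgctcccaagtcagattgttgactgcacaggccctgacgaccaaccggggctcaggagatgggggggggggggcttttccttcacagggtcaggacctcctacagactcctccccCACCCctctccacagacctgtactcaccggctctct
Nr0b1, chrX:86191525-86191774, plus strand: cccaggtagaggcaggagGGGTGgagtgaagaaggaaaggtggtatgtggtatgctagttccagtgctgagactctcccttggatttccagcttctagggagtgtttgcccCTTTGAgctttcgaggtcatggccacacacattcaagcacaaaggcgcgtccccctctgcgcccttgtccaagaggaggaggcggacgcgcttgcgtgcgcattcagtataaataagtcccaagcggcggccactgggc
Zfp42, chr8:43307010-43307259, minus strand: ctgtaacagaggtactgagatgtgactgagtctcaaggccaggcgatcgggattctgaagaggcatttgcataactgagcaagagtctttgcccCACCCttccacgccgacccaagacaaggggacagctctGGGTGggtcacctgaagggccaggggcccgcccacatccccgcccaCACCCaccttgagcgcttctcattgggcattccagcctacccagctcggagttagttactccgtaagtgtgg
Tfcp2l1, chr1:118627695-118627944, plus strand: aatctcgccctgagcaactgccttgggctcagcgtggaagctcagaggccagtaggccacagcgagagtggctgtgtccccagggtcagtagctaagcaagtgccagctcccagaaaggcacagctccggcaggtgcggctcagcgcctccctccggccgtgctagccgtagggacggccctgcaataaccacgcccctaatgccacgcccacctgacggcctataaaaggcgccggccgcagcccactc
The windows of Klf4, Klf2 and Tfcp2l1 hold 32, 29 and 16 CpG dinucleotides, against a median of 6 over all windows, and those of Nr0b1 and Zfp42 hold 11 and 9. The first Esrrb window holds 6 and a window at a start further inside the gene holds 3. The nuclear receptor half-site was not found in any of the 7 windows. A match is a run of letters and not a measured binding site.

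Levels between genes were compared per exon length only, as reads per kilobase of exon scaled to library size (RPKM, a level). In Serum/LIF of the time course the order from high to low was Zfp42 (336), Klf2 (250), Nr0b1 (136), Esrrb (128), Klf5 (77.6), Klf4 (54.4), Tfcp2l1 (32.1), Dppa3 (19.4), Tbx3 (15.1) and Prdm14 (7.07), each a mean of 3 libraries. Zfp42, Klf2, Nr0b1 and Esrrb were thus the abundant members, and Prdm14 the scarcest. In P10 Serum/LIF Zfp42 (296) and Klf2 (92.1) again led and Prdm14 (4.24) was again last. In P10 EMM the last place was taken by Dppa3 (0.541), and in P20 EMM as well (2.67).

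The first question was how the factors respond within the first day of EMM. Expression is given as normalized counts, that is, each count was scaled by its library's TMM effective size to the average size of the experiment, and members are said to have risen or fallen where the adjusted p of edgeR's quasi-likelihood test was under 0.01. After 3 h, 6 of the 10 members had risen and 3 had fallen, where 35.4% of all tested genes were called (16.8% higher and 18.6% lower). Their median log2 fold change was 0.338, against −0.013 over all tested genes. After 9 h, 5 had risen and 2 had fallen (background 39.1%, 19.1% higher and 20.1% lower), and after 24 h, 6 had risen and 2 had fallen (background 44.6%, 22.1% higher and 22.5% lower). Changes above 1 in log2 size were fewer: none at 3 h, Dppa3 alone at 9 h, and Tfcp2l1, Tbx3 and Dppa3 at 24 h, where 4.26%, 5.58% and 8.23% of all tested genes passed that bound.

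Tfcp2l1 climbed at each time point. Its normalized counts were 9255, 8139 and 9467 in Serum/LIF, 12170, 11540 and 12670 at 3 h, 15680, 16240 and 15310 at 9 h, and 19360, 18930 and 18370 at 24 h. No 2 groups overlapped. The log2 fold change against Serum/LIF was 0.44 ± 0.05 (SE) at 3 h, 0.81 ± 0.05 at 9 h and 1.08 ± 0.05 at 24 h (adjusted p = 5.01e-07, 9.03e-11 and 8.14e-13), and both steps from 3 h to 9 h (0.38 ± 0.05, adjusted p = 5.35e-06) and from 9 h to 24 h (0.26 ± 0.05, adjusted p = 0.000564) passed the test. Tbx3, a T-box factor, had 3136, 3042 and 2704 normalized counts in Serum/LIF, 5105, 4825 and 4836 at 3 h, 5107, 5164 and 4535 at 9 h, and 7447, 6748 and 7279 at 24 h. It rose by 3 h (0.73 ± 0.06, adjusted p = 2.12e-08), did not differ detectably between 3 h and 9 h (0.0043 ± 0.058, 95% interval −0.11 to 0.12), and rose again to 1.27 ± 0.06 above Serum/LIF at 24 h (adjusted p = 1.08e-11). Tbx3 thus moved in steps where Tfcp2l1 moved throughout. An antisense gene, Tbx3os1, overlaps Tbx3, and the strand setting of the counting is not given in the sources used here.

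Esrrb, Nr0b1 and Klf2 had their highest means at 3 h. Esrrb, an orphan nuclear receptor, had 22990, 22540 and 22820 normalized counts in Serum/LIF, 34290, 34120 and 34620 at 3 h, 30170, 29850 and 28690 at 9 h, and 31770, 31110 and 30840 at 24 h. It rose at 3 h (0.59 ± 0.03, adjusted p = 9.32e-12), fell between 3 h and 9 h (−0.22 ± 0.03, adjusted p = 1.8e-05), and stayed above Serum/LIF at 24 h (0.46 ± 0.03, adjusted p = 2.46e-10). All 9 EMM libraries lay above the 3 Serum/LIF libraries for Esrrb, Nr0b1 and Klf2 alike. Nr0b1 went from 7630, 7172 and 7037 normalized counts to 11140, 11780 and 11350 at 3 h, 10860, 10960 and 10060 at 9 h, and 10280, 9801 and 9943 at 24 h. Its log2 fold change was 0.65 ± 0.04 at 3 h, 0.55 ± 0.04 at 9 h and 0.46 ± 0.04 at 24 h (adjusted p = 1.37e-10, 1.55e-09 and 1.21e-08), and neither later step passed the test (adjusted p = 0.0528 and 0.146). Klf2 went from 13900, 13750 and 13240 to 18370, 18280 and 18280 at 3 h, 17150, 17530 and 15870 at 9 h and 17040, 16330 and 16210 at 24 h. It was 0.43 ± 0.04, 0.31 ± 0.04 and 0.28 ± 0.04 above Serum/LIF (log2 fold changes, adjusted p = 2.07e-08, 1.59e-06 and 4.3e-06), and its 3 h and 9 h libraries did not overlap although the step missed the threshold (−0.12 ± 0.04, adjusted p = 0.0185, and 0.00975 without EMM 9 h replicate 2).

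The other Krüppel-like factors differed from Klf2. Klf5 had 13030, 11140 and 11630 normalized counts in Serum/LIF, 14130, 14670 and 13780 at 3 h, 12860, 12910 and 13140 at 9 h, and 14780, 16950 and 16230 at 24 h. It rose at 3 h (0.25 ± 0.05, adjusted p = 0.000969), overlapped Serum/LIF at 9 h (0.12 ± 0.05, adjusted p = 0.0727, and 0.00259 without Serum/LIF replicate 1), and rose at 24 h (0.42 ± 0.05, adjusted p = 3.4e-06). Klf4 passed no test in the time course. Its libraries ran from 4739 to 4996 normalized counts in Serum/LIF, 5193 to 5245 at 3 h, 4683 to 5309 at 9 h and 5068 to 5247 at 24 h. Only those at 9 h overlapped Serum/LIF. The log2 fold changes of Klf4 were 0.09, 0.03 and 0.08, with 95% intervals that reach at most 0.17. Of the 14 other KLF genes, 13 were tested, and 5 rose and 3 fell at 24 h, Klf15 furthest up (0.95 ± 0.06) and Klf11, a repressor of the family, furthest down (−1.56 ± 0.06).

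Dppa3, Zfp42 and Prdm14 went down, each with its own course. Dppa3 had 501.3, 528.1 and 502.5 normalized counts in Serum/LIF, 408.5, 387.9 and 423.9 at 3 h, 189.8, 205.7 and 226 at 9 h, and 125.7, 135.1 and 118.2 at 24 h. No groups overlapped and each step passed the test. The log2 fold change against Serum/LIF was −0.33 ± 0.07 at 3 h, −1.30 ± 0.08 at 9 h and −2.02 ± 0.08 at 24 h (adjusted p = 0.000986, 4.72e-11 and 1.01e-13), a 4.04-fold lower level at 24 h. The call at 3 h was lost without EMM 3 h replicate 2 (adjusted p = 0.0102). Zfp42 had 18110, 18550 and 19310 normalized counts in Serum/LIF, 15380, 15420 and 15720 at 3 h, 14270, 13920 and 14210 at 9 h, and 14890, 13660 and 14020 at 24 h. It fell by 0.27 ± 0.04 on the log2 scale at 3 h and by 0.40 ± 0.04 at both later times (adjusted p = 6.64e-06, 2.59e-08 and 2.16e-08). The step from 3 h to 9 h (−0.13 ± 0.04, adjusted p = 0.00752) lost its call without any 1 of the 6 libraries (adjusted p up to 0.0378). Pseudogenes named Dppa3-ps and Zfp42-ps1 exist, so reads of these genes could have been split in counting.

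Prdm14 fell at 3 h and rose again by 9 h. It had 576.4, 552.8 and 477.8 normalized counts in Serum/LIF, 331.4, 293.1 and 287.5 at 3 h, 522.2, 554.4 and 496.5 at 9 h, and 485.3, 455.6 and 459.4 at 24 h. The 3 h libraries lay below all others. The log2 fold change was −0.82 ± 0.08 at 3 h (adjusted p = 4.72e-08), then 0.79 ± 0.08 from 3 h to 9 h (adjusted p = 1.53e-07), and −0.20 ± 0.08 at 24 h against Serum/LIF (adjusted p = 0.0341, and 0.00617 without Serum/LIF replicate 3).

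**Figure D1:**
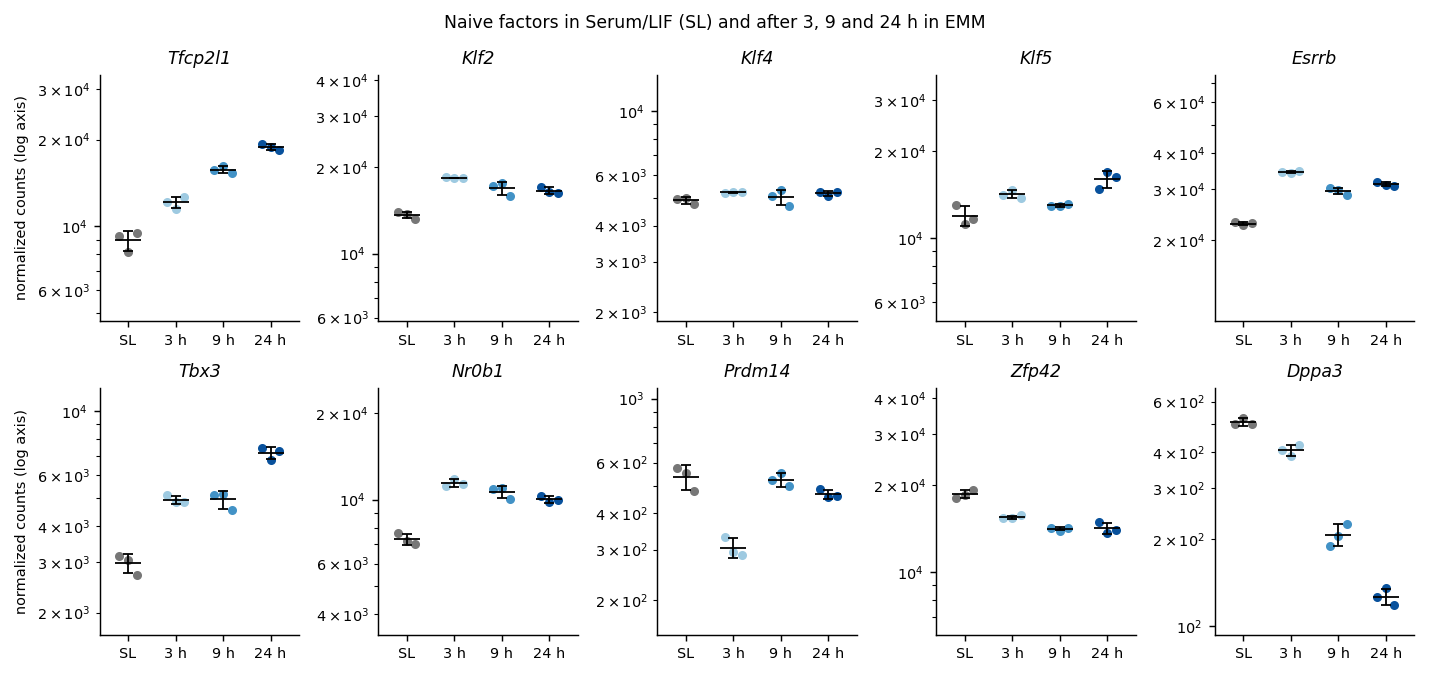
Normalized counts (log axis) of each of the 10 factors in Serum/LIF (SL) and after 3, 9 and 24 h of EMM; points are libraries, bars mean ± SD (n = 3), and each panel has its own axis range. Tfcp2l1 rises through all time points, Prdm14 dips at 3 h (287.5 to 331.4) and Dppa3 falls to between 118.2 and 135.1 at 24 h.

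Successive time points were also compared. Between 3 h and 9 h, 2 rose (Tfcp2l1 and Prdm14) and 3 fell (Esrrb, Zfp42 and Dppa3), against a background of 28% called (14.4% higher and 13.6% lower). Between 9 h and 24 h, 3 rose (Tfcp2l1, Klf5 and Tbx3) and Dppa3 fell, with a background of 14.1% (7.53% higher and 6.59% lower). No member passed a log2 size of 1 in either step, with backgrounds of 1.79% and 0.629%. These comparisons share libraries with those against Serum/LIF.

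Genes around the network were counted in the same way, to be read against the 44.6% of all genes called at 24 h (22.1% higher and 22.5% lower). At 24 h, 7 of the 8 formative and primed genes, which mark the step out of naive pluripotency, had fallen and none had risen (median −1.392), with Lef1 furthest (−2.32 ± 0.16, adjusted p = 2.33e-10), while Fgf5 stood at 0.09 ± 0.09 (adjusted p = 0.458). All 5 genes listed as repressed by PRDM14 had fallen at 24 h, with Dnmt3a furthest (−1.66 ± 0.05). The methyltransferases Dnmt3a and Dnmt3b stand on both lists. Among 5 LIF pathway genes, Socs3, a direct STAT3 target and feedback inhibitor, was higher at 24 h (0.70 ± 0.08, adjusted p = 7.4e-06) and so was Jak1 (0.33 ± 0.04), with no fall called. Of 8 genes of ERK output, 4 rose and 2 fell, with Dusp4 furthest up (0.94 ± 0.06) and Egr1 furthest down (−0.82 ± 0.14). Of 9 Wnt pathway genes, 3 rose and 3 fell. The 14 other naive-state genes split into 3 higher, led by Tcl1 (0.72 ± 0.04), and 2 lower, led by Gbx2 (−0.71 ± 0.05), and Nanog stood at 0.07 ± 0.04 (adjusted p = 0.0982). At 3 h, where 35.4% of all genes were called, 3 of these 14 were higher and 6 lower (median −0.157), with Gbx2 furthest down (−0.73 ± 0.05). Of the 3 ESC markers, Sox2 (−0.59 ± 0.03) and Nanog (−0.33 ± 0.04) were lower at 3 h, and Sox2 alone at 24 h (−0.20 ± 0.03), with Pou5f1 at 0.01 ± 0.03 and −0.06 ± 0.03.

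The passage experiment asked whether the state holds in long culture, and sets EMM beside 2i/LIF. At P10, 6 members were higher in EMM than in Serum/LIF and 1 was lower, where 37.4% of all tested genes were called (18.7% in each direction). Their median log2 fold change was 0.734, against 0.012 over all tested genes. In 2i/LIF at P10, 5 were higher and 1 lower (background 52%, 26.4% higher and 25.6% lower, median 0.461). At P20 no member was called higher in EMM than in Serum/LIF and 6 were lower (background 26.4%, 13.7% higher and 12.8% lower, median −0.473), while in 2i/LIF 3 were higher and 2 lower (background 44.1%, 20.9% higher and 23.2% lower). Past a log2 size of 1 the members numbered 4 in EMM and 3 in 2i/LIF at P10, where 17.2% and 26.4% of all genes passed, and 2 in EMM and 2 in 2i/LIF at P20, where 9.77% and 22.2% passed. The comparisons at 1 passage share the Serum/LIF libraries.

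Tbx3 showed the largest rise in EMM at P10. It had 1009, 959.4 and 966 normalized counts in P10 Serum/LIF, 4608, 4137 and 4378 in P10 EMM, and 2362, 2693 and 2513 in P10 2i/LIF. At P20 it had 1752, 1880 and 2266 in Serum/LIF, 1501, 1498 and 1473 in EMM, and 2944, 3086 and 3065 in 2i/LIF. EMM was thus the medium with the highest Tbx3 at P10 and the one with the lowest at P20. Against Serum/LIF the log2 fold change was 2.16 ± 0.08 in EMM and 1.37 ± 0.08 in 2i/LIF at P10 (adjusted p = 8.18e-14 and 2.01e-11), and −0.40 ± 0.08 in EMM and 0.63 ± 0.08 in 2i/LIF at P20 (adjusted p = 0.000591 and 1.48e-06).

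Tfcp2l1 was highest in 2i/LIF at both passages. The normalized counts were 3840, 3834 and 3207 in P10 Serum/LIF, 8660, 9091 and 9216 in P10 EMM, and 13550, 15680 and 17950 in P10 2i/LIF. At P20 they were 5203, 6087 and 5577 in Serum/LIF, 5521, 5034 and 4694 in EMM, and 17140, 16310 and 17540 in 2i/LIF. The EMM libraries stood between the other media at P10 and overlapped Serum/LIF at P20. The log2 fold change of EMM against Serum/LIF was 1.31 ± 0.10 at P10 (adjusted p = 1.02e-09) and −0.15 ± 0.10 at P20 (adjusted p = 0.245, 95% interval −0.33 to 0.04), while 2i/LIF stood 2.12 ± 0.10 and 1.60 ± 0.10 above Serum/LIF (adjusted p = 4.67e-13 and 3.27e-11). Small RNA genes and a processed pseudogene lie within Tfcp2l1 (Gm23497, Gm22094 and Gm28882).

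Nr0b1 gave the largest separation of EMM from 2i/LIF among the members that were higher in EMM. It had 1181, 1081 and 1101 normalized counts in P10 Serum/LIF, 2404, 2576 and 2934 in P10 EMM, and 1234, 1159 and 1160 in P10 2i/LIF. At P20 it had 1715, 1571 and 1271 in Serum/LIF, 1874, 1843 and 1708 in EMM, and 354.8, 404.9 and 345.8 in 2i/LIF. The P20 2i/LIF libraries were far below all others. EMM stood above 2i/LIF by 1.15 ± 0.10 at P10 and 2.29 ± 0.11 at P20 on the log2 scale (adjusted p = 4.98e-09 and 3.01e-13). Against Serum/LIF the log2 fold change was 1.23 ± 0.10 in P10 EMM (adjusted p = 2.93e-09), 0.25 ± 0.10 in P20 EMM (adjusted p = 0.0463), 0.08 ± 0.10 in P10 2i/LIF (adjusted p = 0.511) and −2.04 ± 0.11 in P20 2i/LIF (adjusted p = 2.57e-12).

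Prdm14 behaved in the opposite way and separated 2i/LIF from EMM. Its normalized counts were 140.8, 197.4 and 171.2 in P10 Serum/LIF, 126.2, 169.9 and 139.7 in P10 EMM, and 518, 594 and 680.9 in P10 2i/LIF. At P20 they were 313, 300 and 272.8 in Serum/LIF, 149.8, 147.7 and 134.9 in EMM, and 563.9, 578.5 and 598.7 in 2i/LIF. Both 2i/LIF groups lay above every other library. The log2 fold change of EMM against 2i/LIF was −2.06 ± 0.14 at P10 and −2.01 ± 0.13 at P20 (adjusted p = 1.25e-10 and 5.39e-11). EMM overlapped Serum/LIF at P10 (−0.24 ± 0.14, adjusted p = 0.184) and was lower at P20 (−1.04 ± 0.13, adjusted p = 3.8e-06), where the EMM level was close to that of P10 and the Serum/LIF level was higher than at P10.

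Esrrb and Klf2 were closest to each other in pattern among the members. The root-mean-square difference between their 6 centred group means of log2 CPM was 0.131, and Esrrb had rank 69 among 16053 genes by closeness to Klf2. Esrrb had 6177, 5897 and 5738 normalized counts in P10 Serum/LIF, 10960, 10220 and 10330 in P10 EMM, and 8682, 9547 and 9105 in P10 2i/LIF. It stood above Serum/LIF at P10 in EMM (0.82 ± 0.07, adjusted p = 9.8e-09) and in 2i/LIF (0.62 ± 0.07, adjusted p = 2.82e-07). At P20 its libraries ran from 7387 to 8468 in Serum/LIF, 8470 to 9302 in EMM and 8139 to 9262 in 2i/LIF, with log2 fold changes of 0.15 ± 0.07 and 0.11 ± 0.07 (adjusted p = 0.095 and 0.19). Klf2 had 2772, 2611 and 2579 in P10 Serum/LIF, 4272, 4359 and 5596 in P10 EMM, and 3734, 3189 and 2919 in P10 2i/LIF. It was higher in P10 EMM than in Serum/LIF (0.83 ± 0.12, adjusted p = 1.12e-05) and than in 2i/LIF (0.53 ± 0.12, adjusted p = 0.000925), with 0.30 ± 0.12 for 2i/LIF against Serum/LIF (adjusted p = 0.0339). At P20 Klf2 ran from 3133 to 3702 in Serum/LIF, 3931 to 4019 in EMM and 2719 to 3879 in 2i/LIF, and no pair of media passed the test in the fit of all groups (EMM against Serum/LIF 0.26 ± 0.12, adjusted p = 0.0952, and 0.00389 with only the groups compared, and EMM against 2i/LIF 0.29 ± 0.12, adjusted p = 0.041, 0.00369 without P20 2i/LIF replicate 1 and 0.00456 without the filter).

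Klf4 and Klf5 differed in the order of the media. Klf4 had 2375, 2203 and 1918 normalized counts in P10 Serum/LIF, 3035, 2355 and 2217 in P10 EMM, and 3182, 4650 and 3795 in P10 2i/LIF. At P20 it had 2589, 2566 and 2683 in Serum/LIF, 1510, 1681 and 1533 in EMM, and 2251, 3952 and 3819 in 2i/LIF. It was higher in 2i/LIF than in Serum/LIF at P10 (0.84 ± 0.18, adjusted p = 0.000868) and lower in EMM at P20 than in either other medium (−0.73 ± 0.18 against Serum/LIF, adjusted p = 0.00501, and −1.09 ± 0.18 against 2i/LIF, adjusted p = 9.19e-05). The low 2i/LIF library at P20 is replicate 1, the shallowest of the series, and without it the difference of P20 2i/LIF from Serum/LIF passed the test (0.58, adjusted p = 0.00132, against 0.36 ± 0.18 and 0.102 with it). Klf5 had 2878, 2663 and 2454 in P10 Serum/LIF, 4475, 4085 and 3922 in P10 EMM, and 2011, 2929 and 3484 in P10 2i/LIF. At P20 it had 5315, 5058 and 4623 in Serum/LIF, 3462, 3420 and 3379 in EMM, and 2404, 3028 and 2505 in 2i/LIF. Klf5 was higher in EMM than in Serum/LIF at P10 (0.64 ± 0.14, adjusted p = 0.000896) and lower at P20 (−0.55 ± 0.14, adjusted p = 0.00428). It was also lower than in Serum/LIF in P20 2i/LIF (−0.92 ± 0.14, adjusted p = 2.35e-05), while EMM against 2i/LIF at P20 (0.37) missed the threshold in the fit of all groups. The P20 EMM calls against Serum/LIF were lost for Klf4 without any 1 of the 6 libraries (adjusted p up to 0.0228) and for Klf5 without any 1 other than Serum/LIF replicate 3 (adjusted p up to 0.0183), so that 4 or 5 members were called in place of 6.

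Dppa3 was nearly lost in EMM. It had 644.2, 636.9 and 801.7 normalized counts in P10 Serum/LIF and 5.626, 7.793 and 9.163 in P10 EMM, from 4 to 7 counts per library. At P20 it had 466.4, 374.3 and 382.9 in Serum/LIF and 37.21, 33.57 and 40.62 in EMM. The level in EMM was 98.3-fold lower at P10 and 11-fold lower at P20 (log2 fold changes −6.62 ± 0.71 and −3.46 ± 0.50, adjusted p = 4.48e-06 and 0.000118), and at P10 so few counts leave the size imprecise (95% interval of the log2 fold change −8.00 to −5.24). In 2i/LIF it had 558.8, 553.3 and 1281 at P10 and 368.9, 270.4 and 925.3 at P20, with replicate 3 far above the others at both passages. Against Serum/LIF the log2 fold changes of 2i/LIF were 0.22 ± 0.39 and 0.37 ± 0.41 (adjusted p = 0.65 and 0.461), and without replicate 3 of 2i/LIF they turned to −0.32 and −0.38, also not called. EMM was below 2i/LIF at P10 and P20 (−6.84 ± 0.70 and −3.83 ± 0.50, adjusted p = 2.29e-06 and 1.76e-05).

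Zfp42 had the smallest range of group means, 0.697 on the log2 scale. It ran from 8278 to 9444 normalized counts in P10 Serum/LIF, 9363 to 11600 in P10 EMM and 6119 to 7473 in P10 2i/LIF, and from 9922 to 10590 in P20 Serum/LIF, 6676 to 7218 in P20 EMM and 10270 to 11580 in P20 2i/LIF. It was lower than in Serum/LIF in P10 2i/LIF (−0.39 ± 0.09, adjusted p = 0.000908) and in P20 EMM (−0.55 ± 0.09, adjusted p = 6.42e-05). The P10 2i/LIF call was lost without P10 Serum/LIF replicate 1 (adjusted p = 0.0106). EMM was above 2i/LIF at P10 (0.61 ± 0.09, adjusted p = 8.85e-06) and below it at P20 (−0.62 ± 0.09, adjusted p = 5.75e-06). In that P20 comparison all tested genes of chromosome 8, which carries Zfp42, had a median of −0.291.

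**Figure D2:**
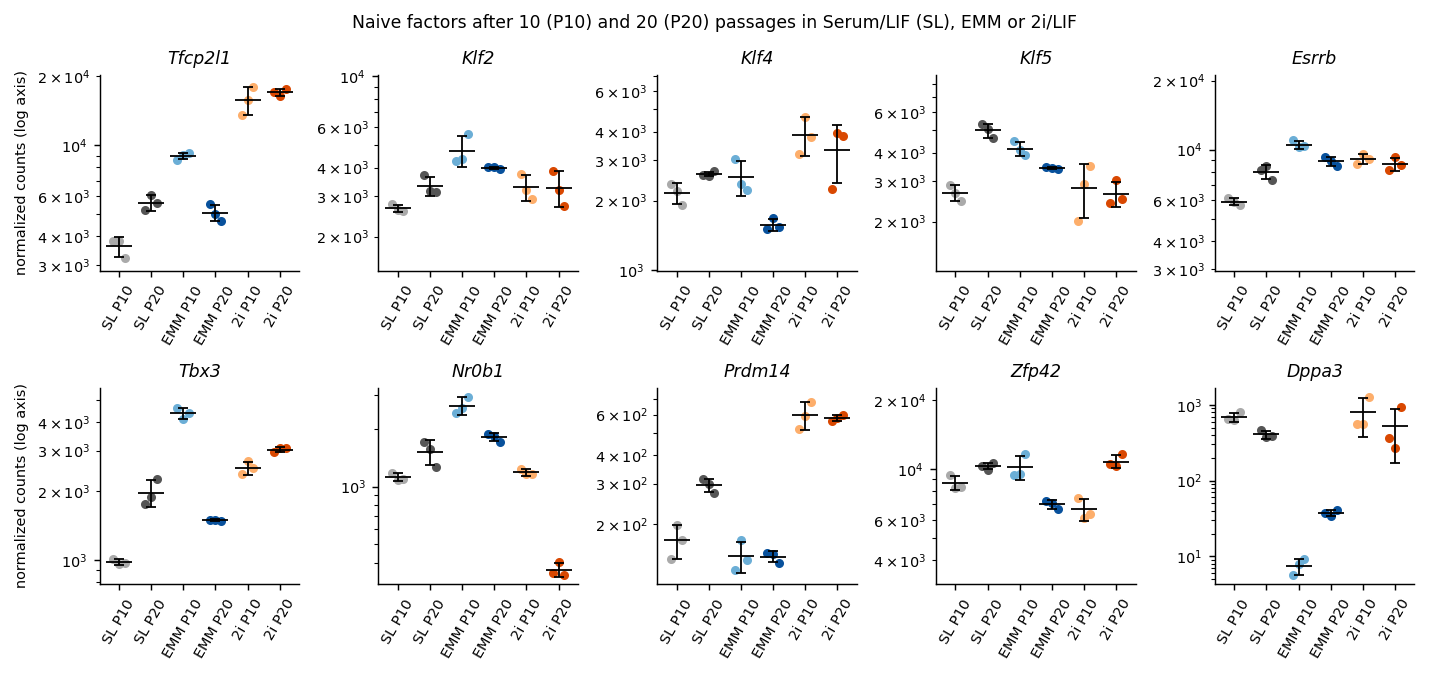
Normalized counts (log axis) of the 10 factors in Serum/LIF (SL), EMM and 2i/LIF after 10 (P10) and 20 (P20) passages; points are libraries, bars mean ± SD (n = 3), and each panel has its own axis range. Tfcp2l1 and Prdm14 are highest in 2i/LIF, Tbx3 and Nr0b1 in P10 EMM, and Dppa3 falls below 10 normalized counts in P10 EMM.

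Directly between EMM and 2i/LIF, 5 members were higher and 3 lower in EMM at P10 (background 44.9%, 22.8% higher and 22.1% lower), and 1 was higher (Nr0b1) and 6 were lower at P20 (background 48.7%, 25.8% higher and 22.9% lower). Past a log2 size of 1 they numbered 3 at P10 (background 22.1%) and 6 at P20 (background 25.4%). At P10 the higher members were Klf2, Klf5, Tbx3, Nr0b1 and Zfp42, and the lower ones Tfcp2l1, Prdm14 and Dppa3. Klf4 missed the threshold there (−0.61 ± 0.18, adjusted p = 0.01), and it passed in each of the other fits of all 6 libraries (adjusted p from 2.37e-09 without the filter to 0.00878 with library totals) except the one with the replicate block, and without P10 2i/LIF replicate 1 (0.00617) or P10 EMM replicate 1 (0.00495). The Klf5 call was lost without P10 EMM replicate 1 (adjusted p = 0.0121) and with only the groups compared (0.015). At P20 Tfcp2l1, Klf4, Tbx3, Prdm14, Zfp42 and Dppa3 were lower in EMM, with log2 fold changes from −0.62 to −3.83. Klf5 (0.37) missed the threshold at P20. It was called higher in EMM without the filter (adjusted p = 0.000318) and with only the groups compared (0.00589).

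Whole chromosomes also differed in P20 2i/LIF. The median log2 fold change of P20 2i/LIF against Serum/LIF was 0.447 over the 833 tested genes of chromosome 8, which carries Klf2 and Zfp42, and 0.327 over the 746 of chromosome 6, which carries Dppa3, against −0.006 over all genes. All 3 libraries showed it (0.284 to 0.299 above the mean of the 18 libraries on chromosome 8, and 0.2 to 0.276 on chromosome 6). Chromosome 14, which carries Klf5, had a median of −0.175 in the same comparison. In P20 EMM against Serum/LIF, chromosome 8 had a median of 0.135. With each chromosome scaled on its own, P20 2i/LIF was lower than Serum/LIF for Zfp42 (−0.34, adjusted p = 0.000945, from 0.07 ± 0.09 and 0.552) and for Klf2 (−0.44, adjusted p = 0.00116, from −0.04 ± 0.12 and 0.818). The Klf2 difference of EMM from 2i/LIF at P20 then passed the test as well (0.55, adjusted p = 0.000112).

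**Figure D3:**
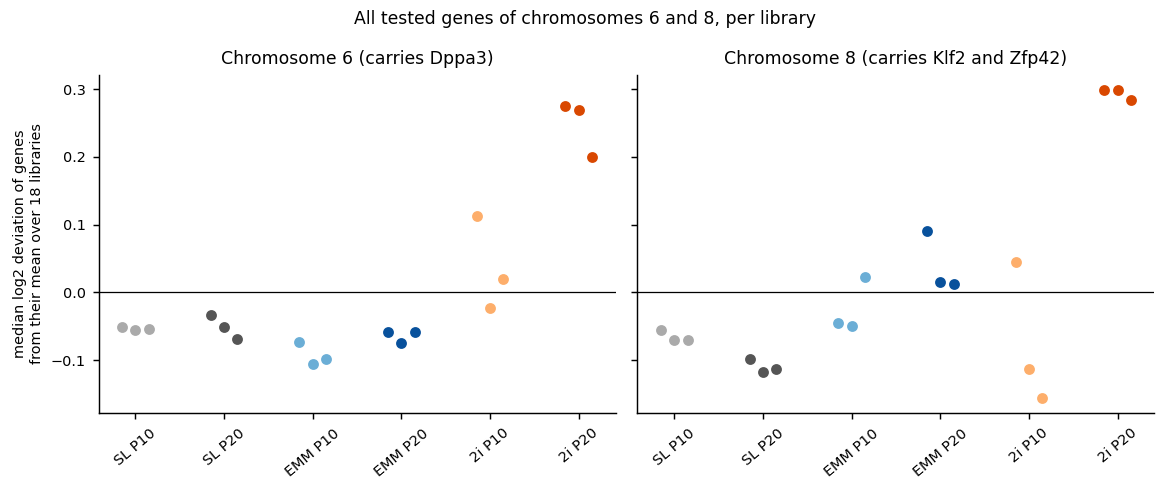
Median log2 deviation of all tested genes of chromosomes 6 and 8 from their mean over the 18 passage libraries; each point is 1 library of Serum/LIF (SL), EMM or 2i/LIF at P10 or P20. The P20 2i/LIF libraries lie at 0.2 to 0.276 on chromosome 6 and at 0.284 to 0.299 on chromosome 8, above all others.

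The media themselves changed between P10 and P20, and not alike. In Serum/LIF, with all groups in 1 model, 6 members rose from P10 to P20 and none was called lower, where 6.29% of all tested genes were called (3.31% higher and 2.98% lower). Only Tbx3 passed a log2 size of 1 there (background 1.87%). Those that rose were Tfcp2l1 (0.63 ± 0.10), Klf5 (0.91 ± 0.14), Esrrb (0.43 ± 0.07), Tbx3 (1.01 ± 0.08), Nr0b1 (0.44 ± 0.10) and Prdm14 (0.80 ± 0.13), and for all 10 members the P10 and P20 libraries did not overlap (background 41.1%), with only Dppa3 the lower at P20. The calls depended on the fit, since with the Serum/LIF groups alone Dppa3 was lower at P20 (−0.76, adjusted p = 0.000127, and 4.25e-08 without the filter in the fit of all groups) and Klf2 higher (0.33, adjusted p = 0.00258), against −0.77 ± 0.40 (0.22) and 0.33 ± 0.12 (0.0699) with all groups. The Nr0b1 call was lost without 5 of the 6 libraries in turn (adjusted p up to 0.0371) and with each chromosome scaled on its own (0.43, adjusted p = 0.0109). In EMM 5 members fell and none rose (background 25.2%, 13.4% higher and 11.9% lower): Tbx3 (−1.55 ± 0.08), Tfcp2l1 (−0.82 ± 0.10), Klf4 (−0.69 ± 0.18), Nr0b1 (−0.54 ± 0.10) and Zfp42 (−0.54 ± 0.09). Dppa3 was 5.25-fold higher in P20 than in P10 EMM, with no overlap, and the call depended on the fit (2.39 ± 0.95, adjusted p = 0.0636 with all groups in 1 model, and 2.37, adjusted p = 0.000129 with the EMM groups alone). Only Tbx3 was called past a log2 size of 1 in EMM (background 8.58%). With the EMM groups alone 8 members were called, 7 lower and Dppa3 higher, where 34.9% of the 14635 genes of that fit were called (17.4% in each direction). Esrrb (−0.24 with all groups) missed the threshold in EMM. It was called lower with DESeq2 size factors (adjusted p = 0.00857), DESeq2's Wald test (0.000893), the EMM groups alone (0.00378) and chromosomes scaled (0.00254). The Klf4 call in EMM was lost without any 1 library other than P10 EMM replicate 3 (adjusted p up to 0.0422), with the replicate block (adjusted p = 0.0105) and with library totals (adjusted p = 0.0202).

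In 2i/LIF, in the fit of all groups, only Nr0b1 fell (−1.68 ± 0.11, adjusted p = 3.92e-10) and only Zfp42 rose (0.69 ± 0.09, adjusted p = 5.15e-06), with a background of 28.3% (13.1% higher and 15.2% lower), and Nr0b1 was the member past a log2 size of 1 (background 10.1%). Genes of chromosome 8, which carries Zfp42 and Klf2, had a median of 0.322 in the same comparison, so part of the Zfp42 value was shared with its chromosome. With each chromosome scaled on its own, Zfp42 was still called higher. Klf2 was then called lower (−0.38, adjusted p = 0.00665, from −0.01 ± 0.12 and 0.956) and Tbx3 higher (0.29, adjusted p = 0.00734, from 0.27 ± 0.08 and 0.0121). Tbx3 was also called with DESeq2's Wald test (adjusted p = 0.00443). Here same-numbered libraries moved together, and in a fit of the 2i/LIF groups alone with a replicate block, chosen after seeing the data, 4 members were called where 32.2% of its 13670 genes were (16% higher and 16.2% lower), adding Tbx3 (0.28, adjusted p = 0.00566) and Dppa3 (−0.67, adjusted p = 0.000711). In the fit of all groups Dppa3 stood at −0.62 ± 0.40 (adjusted p = 0.242, and 0.00354 without P20 2i/LIF replicate 3).

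The difference of the media effects between passages was tested as an interaction. For EMM against Serum/LIF the effect was called lower at P20 than at P10 for 7 members and higher for none (background 15%, 8.43% higher and 6.55% lower), and for 2i/LIF against Serum/LIF it was lower for 6 and higher for Zfp42 (background 20.1%, 9.18% higher and 10.9% lower). Past a log2 size of 1 these were 3 in EMM (background 8.57%) and 1 in 2i/LIF (background 9.27%). Dppa3 had the largest shift in EMM by size, 3.16 ± 1.02 and upwards, which missed the threshold (adjusted p = 0.0379) but passed it with the replicate block (0.00696), with DESeq2's Wald test (0.000118), with only the groups compared (1.28e-07) and without the filter on low counts (1.72e-21). Klf4 (−0.96 ± 0.26, adjusted p = 0.0124) and Klf2 (−0.58 ± 0.17, adjusted p = 0.0165) also missed the threshold in EMM. Klf4 passed it with only the groups compared (3.04e-05), with DESeq2's Wald test (0.000648), without the filter (3.46e-09) and where all libraries had to reach 10 counts (0.00802). Klf2 passed it with only the groups compared (0.00137), without the filter (0.0027) and with each chromosome scaled on its own (0.00158). In 2i/LIF the Klf2 shift went from −0.34 ± 0.17 (adjusted p = 0.129) to −0.75 (0.000733) with each chromosome scaled on its own. The Zfp42 call in 2i/LIF (0.45 ± 0.13, adjusted p = 0.00973) was lost with each chromosome scaled on its own (0.05, adjusted p = 0.785), with library totals (adjusted p = 0.0234), with only the groups compared (0.016) and without any 1 of 10 of the 12 libraries (up to 0.0375). Among called members the largest shift in EMM was that of Tbx3 (−2.56 ± 0.12 on the log2 scale, adjusted p = 7.12e-12) and in 2i/LIF that of Nr0b1 (−2.11 ± 0.14, adjusted p = 5.37e-09). Both sets rest on the same Serum/LIF libraries, in which 6 members rose. For Tfcp2l1 in EMM the shift of −1.46 ± 0.14 is made of a fall of 0.82 in EMM and a rise of 0.63 in Serum/LIF. For Prdm14 in EMM the shift of −0.80 ± 0.20 came with 0.0013 ± 0.14 in EMM itself and 0.80 ± 0.13 in Serum/LIF, and that of Klf5 (−1.19 ± 0.20) with −0.28 ± 0.14 in EMM (adjusted p = 0.112) and 0.91 ± 0.14 in Serum/LIF. The Prdm14 shift lost its call without 6 of the 12 libraries in turn (adjusted p up to 0.0227).

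**Figure D4:**
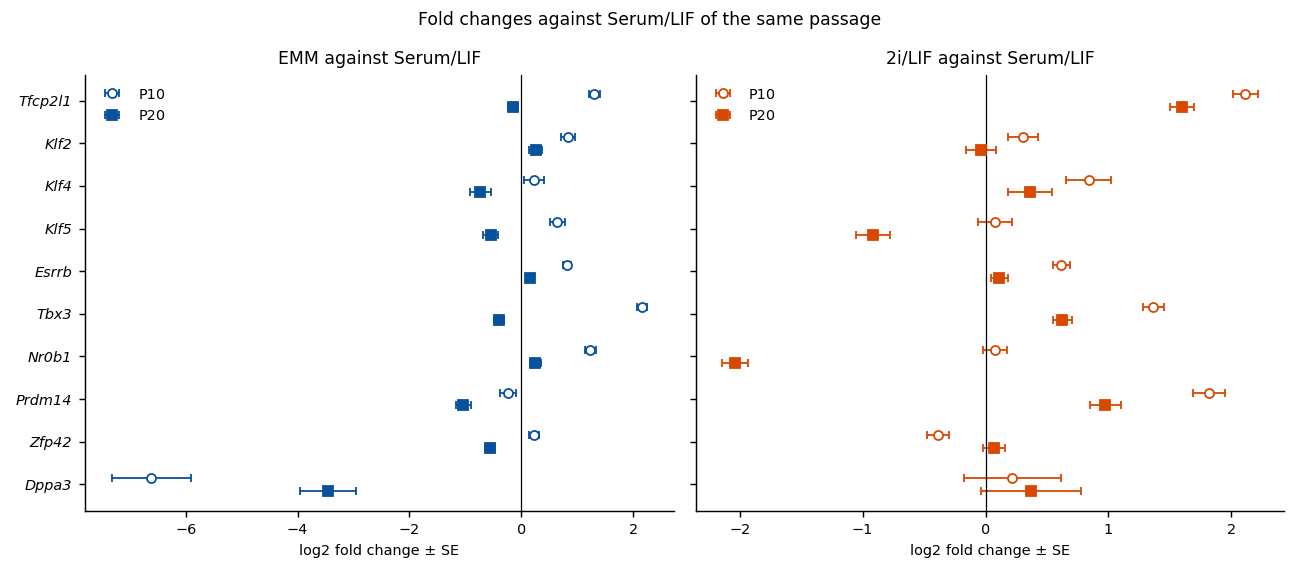
Log2 fold change ± SE of the 10 factors in EMM (left) and 2i/LIF (right) against Serum/LIF of the same passage, with P10 as open circles and P20 as filled squares (3 libraries per group); the panels have different horizontal ranges. Tbx3 goes from 2.16 at P10 to −0.40 at P20 in EMM, and Nr0b1 from 0.08 to −2.04 in 2i/LIF.

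The genes around the network were counted at both passages too, to be read against the shares of all genes called against Serum/LIF, which were 37.4% in P10 EMM, 26.4% in P20 EMM, 52% in P10 2i/LIF and 44.1% in P20 2i/LIF. In P10 EMM 11 of the 14 other naive-state genes were higher than in Serum/LIF and none lower (median 0.602), led by Tcl1 (1.70 ± 0.12), and at P20 3 were higher, led by Pecam1 (0.50 ± 0.11), and 2 lower, Nanog (−1.11 ± 0.11) and Gbx2 (−1.10 ± 0.14). In 2i/LIF 7 of the 14 were higher and 5 lower at P10, with Jam2 furthest up (1.92 ± 0.12) and Dppa4 furthest down (−1.25 ± 0.09), and 7 higher and 4 lower at P20, with Nr5a2 (1.00 ± 0.11) and Dppa2 (−2.32 ± 0.16) furthest. The formative and primed genes gave 0 higher and 5 lower of 8 in P10 EMM, with Pou3f1 furthest down (−3.25 ± 0.13), against 3 higher and 0 lower in P20 EMM, with Fgf5 furthest up (1.56 ± 0.27, adjusted p = 0.000187). In 2i/LIF the P10 libraries had 2 of them higher and 6 lower, while at P20 7 were lower and 0 higher, with Pou3f1 furthest down at P10 (−7.13 ± 0.19) and Fgf5 at P20 (−8.36 ± 0.79). Against 2i/LIF all 8 were higher in P20 EMM (median 3.014), where 48.7% of all genes were called (25.8% higher).

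Of the 5 genes that PRDM14 is known to repress, 5 were lower in 2i/LIF than in Serum/LIF at P10 and 4 at P20, with Fgfr2 furthest down (−3.30 ± 0.18 and −4.88 ± 0.23) and Fgfr1 higher at P20 (0.68 ± 0.10). In EMM 3 were lower and Dnmt3l higher (1.45 ± 0.31) at P10, and Fgfr2 alone was called at P20, higher (1.08 ± 0.15). Of the 8 ERK output genes, 4 were higher and 2 lower in P10 EMM and 6 higher and 1 lower in P20 EMM, with Spry4 (2.45 ± 0.11) and Fos (1.18 ± 0.29) furthest up and Fos (−1.22 ± 0.22) and Etv4 (−0.91 ± 0.13) furthest down. In 2i/LIF 1 was higher, Egr1 (1.28 ± 0.12), and 5 lower at P10, with Dusp4 furthest (−4.56 ± 0.18), and 7 were lower at P20, with Egr1 furthest (−5.40 ± 0.21). Of 5 LIF pathway genes 3 were higher in P10 EMM, with the receptor Lifr furthest (1.32 ± 0.09), and 2 in P20 EMM, again with Lifr furthest (0.63 ± 0.09). In P10 2i/LIF Il6st was furthest up (0.97 ± 0.13) and Socs3 down (−3.54 ± 0.16). In P20 2i/LIF 2 LIF pathway genes were higher, with Stat3 furthest (0.56 ± 0.07), and none was called lower, Socs3 standing at −0.25 ± 0.13 (adjusted p = 0.111) after a rise of 2.98 ± 0.16 from P10 to P20 within 2i/LIF. The Wnt list, whose feedback target Axin2 responds to GSK3 inhibition, gave 6 higher and 0 lower of 9 in P10 2i/LIF, with Axin2 furthest (3.30 ± 0.19). In P20 2i/LIF it gave 2 higher and 3 lower, with Axin2 furthest up (1.71 ± 0.18) and Lef1 furthest down (−2.86 ± 0.18). It gave 1 higher and 3 lower in P10 EMM, where Axin2 fell by 0.94 ± 0.20 on the log2 scale, and 1 higher (Lef1, 0.60 ± 0.14) and 1 lower (Axin2, −1.18 ± 0.19) in P20 EMM. Of the 11 other KLF genes tested, 5 were higher and 4 lower in P10 EMM, and 5 higher and 2 lower in P20 EMM, with Klf15 furthest up at both (2.05 and 1.65). Some genes stand on more than 1 list, as Stat3, Lef1, Dnmt3a and Dnmt3b do.

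The genes whose pattern over the 6 passage groups was closest to a member, by the root-mean-square difference of the centred group means of log2 CPM over 18 libraries, were Zc3hav1 for Tfcp2l1 (0.0868), Atg14 for Esrrb (0.0594), Lrch4 for Klf2 (0.0612), Rrm2 for Zfp42 (0.0671), Gm15455 for Prdm14 (0.0942), Neb for Klf4 (0.0947), Fam19a3 for Nr0b1 (0.1), Aifm2 for Klf5 (0.102), Klhl34 for Tbx3 (0.168) and Lnx1 for Dppa3 (0.553). Dppa3 had the widest range of group means, 6.29 on the log2 scale, and its closest gene lay furthest from it.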

How the data were processed

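RNA was total RNA per the labels, depleted of rRNA per the study's methods, and gene tables were deposited by the authors. Per the labels, the time course holds raw counts and the passage experiment estimated counts, and the submitters' processing notes name STAR, featureCounts, Salmon, DESeq2 and mm10, while the study's methods name STAR and HTSeq. The methods also describe allocating reads to introns and exons and counting them per gene and class. Whether the deposited tables include intronic reads, the strand setting and the versions are not given in the sources used here. Estimated counts (9.982% not whole) were rounded.

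Groups came from the labels. All groups of an experiment were fitted together in edgeR 4.0.16 (R 4.3.3, limma 3.58.1): filterByExpr, TMM, quasi-likelihood test with robust estimation, Benjamini-Hochberg adjustment over all tested genes, and a member was called at an adjusted p under 0.01. SE is the log2 fold change divided by the square root of F. P-values measure the spread between libraries that the study calls independent experiments. Libraries of a group were not equally far apart, by a chi-square per degree of freedom that grows as libraries differ beyond counting error. It was 2.09 to 2.69 within EMM 3 h, 2.49 for EMM 9 h replicates 1 and 2, and 2.89 for EMM 24 h replicates 2 and 3. The other time-course pairs had 10.1 to 14.1. The reason was not tested. The 10 members and all gene lists were chosen with earlier results of these data known. Genes other than the members were named by a rule: the called gene of each list with the largest rise and the largest fall against Serum/LIF, the ESC markers, and the gene nearest to each member in pattern. Fgf5 at 24 h, Axin2 in P10 EMM, Socs3 in P20 2i/LIF, the markers Krt8, Krt18 and Gata3 at 24 h, the primitive endoderm markers and T in the passage experiment, Gbx2 at 3 h and the second gene of counts of 2 were chosen after their values were seen.

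Alternatives were DESeq2 1.42.0 (Wald test and size factors), library totals, other filters, only the groups compared, a replicate block, each chromosome scaled on its own, and each library left out. Replicate numbers are those of the sample titles, while the deposited columns of the EMM time course carry numbers higher by 1, and the block and the named left-out libraries rest on the titles. The numbers were taken as pairing only P10 and P20 2i/LIF, where same-numbered libraries deviated together (r = 0.547, 0.381 and 0.409). Same-numbered libraries were also the most alike, at smaller r, between P10 and P20 Serum/LIF (0.152, 0.168 and 0.071) and in some other passage pairs. In the time course, deviations were shared between groups without following the number. There r reached 0.604 for the same number and 0.686 for different numbers. The fit of all groups takes no account of this. Counting error, which depth sets, is part of the spread tested, and 3 counts served as the floor. The scripts were tested on simulated data.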

Additional observations from a re-analysis of the deposited data

Results flagged for a closer look

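The effect of a medium against Serum/LIF differed between P20 and P10, by an interaction test, for 14 member results, all given as the P20 minus P10 difference in log2 fold change. For EMM these were Tfcp2l1 (−1.455), Klf5 (−1.191), Esrrb (−0.6695), Tbx3 (−2.559), Nr0b1 (−0.9817), Prdm14 (−0.799) and Zfp42 (−0.7771). For 2i/LIF they were Tfcp2l1 (−0.5205), Klf5 (−0.9938), Esrrb (−0.5049), Tbx3 (−0.74), Nr0b1 (−2.115), Prdm14 (−0.8459) and Zfp42 (0.4533). Both media were set against the same Serum/LIF libraries. Left out in turn, 6 of 12 libraries ended the call for Tfcp2l1 in 2i/LIF (adjusted p up to 0.0229; 0.0165 with only the groups compared), 6 of 12 that for Prdm14 in EMM (up to 0.0227), and 10 of 12 that for Zfp42 in 2i/LIF (up to 0.0375). Each chromosome scaled on its own also ended the calls in 2i/LIF for Zfp42 (0.05, adjusted p = 0.785) and Tfcp2l1 (−0.46, adjusted p = 0.0165), and added one for Klf2 (−0.75, adjusted p = 0.000733, from −0.34 and 0.129).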

How the results depend on the processing

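Where a log2 size above 1 was also required, the members called were 0 at 3 h, 1 at 9 h, 3 at 24 h, 0 for 9 h against 3 h and 0 for 24 h against 9 h. In the passage experiment they were 4 (P10 EMM against Serum/LIF), 3 (P10 2i/LIF against Serum/LIF), 3 (P10 EMM against 2i/LIF), 2 (P20 EMM against Serum/LIF), 2 (P20 2i/LIF against Serum/LIF), 1 in each of Serum/LIF, EMM and 2i/LIF for P20 against P10, 3 for the EMM difference and 1 for the 2i/LIF difference. P20 against P10 in EMM gave 8 with only the groups compared. In 2i/LIF it gave 4 with only these groups and the replicate block, and 4 with each chromosome scaled on its own.

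Values that turned sign were small, and apart from Zfp42 in P20 2i/LIF with chromosomes scaled, not called. Prdm14 in EMM, P20 against P10, was −0.0032 with DESeq2 size factors, −0.0042 with the replicate block, −0.0174 with only the groups compared and −0.0274 with chromosomes scaled. For P20 2i/LIF against Serum/LIF, library totals gave −0.0065 for Esrrb and −0.054 for Zfp42, and at least 10 counts in every library gave −0.0123 for Zfp42. That filter gave −0.0013 for Klf5 in P10 2i/LIF, and under it Dppa3 had no passage value. Klf2 in 2i/LIF, P20 against P10, was 0.0106 without a filter, 0.0077 with only the groups compared and 0.0019 with the block added. With chromosomes scaled, Zfp42 in P20 2i/LIF against Serum/LIF was −0.34, Esrrb in P20 EMM against 2i/LIF −0.065, Klf5, Esrrb and Prdm14 in 2i/LIF, P20 against P10, 0.0033, 0.048 and 0.0079, and the Dppa3 2i/LIF difference −0.045. The causes were not tested.

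With each library left out, uncalled values that crossed 0 ranged as follows. Dppa3 ranged from −0.60 to 0.69 (2i/LIF difference), −0.32 to 0.42 (P10 2i/LIF) and −0.38 to 0.71 (P20 2i/LIF), Esrrb from −0.0052 to 0.096 (P20 EMM against 2i/LIF), and Klf2 from −0.16 to 0.11 (2i/LIF passages), −0.076 to 0.0010 (24 h against 9 h) and −0.17 to 0.081 (P20 2i/LIF). Klf4 ranged from −0.0053 to 0.091 (24 h against 9 h) and −0.0078 to 0.097 (9 h), Klf5 from −0.27 to 0.10 (2i/LIF passages) and −0.11 to 0.27 (P10 2i/LIF), and Prdm14 from −0.14 to 0.063 (2i/LIF passages), −0.092 to 0.035 (9 h) and −0.11 to 0.13 (EMM passages). Tbx3 ranged from −0.030 to 0.063 (9 h against 3 h) and Zfp42 from −0.032 to 0.027 (24 h against 9 h).

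Of 160 member results, the replicate block kept 156 calls and directions. It ended Klf4 in EMM passages (−0.70, adjusted p = 0.0105) and added Klf2 at 9 h against 3 h (−0.12, adjusted p = 0.00928) and Dppa3 in the EMM difference (3.07, adjusted p = 0.00696). DESeq2's Wald test kept 153 and added 7, and DESeq2 size factors kept 157.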
